A study of Drosophila melanogaster with 19 samples.

Results

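The genes described here are 32 genes of the ecdysone pathway of Drosophila melanogaster: the hormone receptor and its co-activator, the transcription factors it induces, its inducible target genes, and the enzymes that make or inactivate the hormone. They were taken by name from a list, and a gene counted as measured when a probe set of the array carried its symbol and no other. By that rule 26 of the 32 genes were measured, among 11982 genes named by a probe set of their own. Where a gene had over 1 probe set, as 9 of the 26 did, the probe set with the highest mean level stood for it. Eip74EF, Eip75B and Eip63F-1 are named only. Eip71CD, Eip55E and phm were found under the RefSeq symbols MsrA, Cth and phtm, and their values are given apart from the 26.

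Ecdysone is the steroid hormone of moulting and metamorphosis in insects. It is made from cholesterol in the prothoracic gland by a chain of mostly cytochrome P450 enzymes, is turned into its active form in peripheral tissues, and binds a receptor formed by the nuclear receptors EcR and usp. The bound receptor induces a first set of transcription factors, which switch on and time later target genes, and pulses of the hormone drive the change of imaginal discs into adult epidermis such as that of the notum, the dorsal thorax.

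The arrays measured RNA of notums dissected at 16 h after puparium formation, when bristle precursors form in this tissue. All animals carried sca-Gal4, which drives transgenes where scabrous is expressed and not in every cell, and tub-Gal80ts, a temperature-sensitive block of Gal4. The crosses were held at 18 °C, where Gal80ts blocks Gal4, and animals spent the 6 h before dissection at 29 °C, where it does not. Each array held a pool of 8 to 12 notums and was labelled from 500 ng of total RNA.

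The control group carried UAS-GFPnls, a nuclear green fluorescent protein (GFP group, 3 arrays). Achaete, a proneural activator, was expressed in the Ac group (2 arrays, UAS-Ac). Senseless, a zinc finger protein that keeps proneural activity high, was expressed in the Sens group (3 arrays, UAS-Sens), and Asense, a proneural-type factor of neural precursors, in the Ase group (3 arrays, UAS-Ase). A repressor induced by Notch signalling was expressed in the m3 group (3 arrays, UAS-E(spl)m3-HLH). The remaining groups carried pairs of these transgenes: Ac+Sens (3 arrays) and Ase+m3 (2 arrays). The labels call the arrays of a group biological replicates.

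Levels are log2 signals. All 10 markers of notum epidermis were measured on every array. The third arrays of Sens, Ase, m3 and Ac+Sens list 60.3 to 60.6% of their probe sets at exactly 0, which were treated as missing, so 15 of the 26 genes had a level on all 19 arrays. Ase+m3 replicate 2 was the least like the other 18 arrays: the median of its Spearman correlations with them was 0.89, where each other array had 0.964 to 0.987. On it, the deviation of a probe set fell with the length of its gene (Spearman -0.691 over 6416 probe sets), and on GFP replicate 2 (-0.60) and Ac+Sens replicate 3 (-0.465) it did so less. The array labelled Sens replicate 1 went against its label: its sens level was 7.38, within the 7.15 to 7.55 of the GFP arrays, and its sc level was 10.63, where the Ac arrays had 10.37 and 10.42 and the other Sens arrays 7.17 and 6.84.

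Few of the 26 genes changed in any group at an adjusted p under 0.05 in limma, with Benjamini-Hochberg adjustment over all 18769 probe sets. Against GFP, Ase raised 1 gene, ImpL1 (1.24% of all probe sets were called, 1% as higher), and Ase+m3 lowered 1 gene, ftz-f1 (2.31% called, 0.57% as lower). None of the 26 was called in Ac (0.218%), Sens (0.277%), m3 (0.341%) or Ac+Sens (0.773%). At an unadjusted p under 0.05 the counts there were 0, 1, 2 and 6 of 26 genes, beside 4.99, 9.39, 11.9 and 12.5% of all probe sets. The count for Sens was also 0 without the array labelled Sens replicate 1.

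The combinations were also set against their parts. Ase+m3 had 4 genes lower than Ase (tai, br, ftz-f1 and ImpL1, with 5.6% of all probe sets called, 4.3% as lower) and 3 lower than m3 (tai, ftz-f1 and Eip63E, with 6.56% called, 4.03% as lower). The interaction of Ase and m3, which asks whether the response to m3 differed when Ase was present, was called for 2 genes, usp and ImpL1, both below 0 (3.95% called, 3.27% below 0). Ac+Sens had none of the 26 called against Ac (0.0799%) or Sens (0.0533%), nor in the interaction of Ac and Sens (0.0426%), with 3, 1 and 0 genes at an unadjusted p under 0.05, beside 9.80, 7.93 and 6.21% of all probe sets. Over all groups the moderated F test called 1 gene, ImpL1 (2.75% called).

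The median of the 26 genes was set beside that of all probe sets. Their median difference from GFP was 0.22 in Ase, beside 0.080 over all probe sets, and 24 of the 26 differences were above 0. Sens also had 24 above 0, m3 21, Ac+Sens 20 and Ac 18. The medians there were 0.16 in Sens (0.049 over all), 0.17 in m3 (0.050), 0.16 in Ac+Sens (0.0068) and 0.064 in Ac (0.025). The share of all probe sets on each side of 0 was not computed. In Ase+m3 the median was -0.055 beside 0.069 over all. Against Ase, the median of Ase+m3 was -0.25 beside 0.013, and -0.43 over the 15 genes measured on all arrays. The median over all probe sets measured on all arrays was not computed, so the -0.43 has no like value beside it. In the interaction of Ase and m3 the median was -0.40 beside -0.032 over all, and 21 of the 26 values were below 0, again with no share over all probe sets to set beside it. The arrays of Ase and GFP did not overlap for 10 of the 26 genes, where this held for 36.3% of all probe sets. Those of Ac+Sens and GFP did not overlap for 13 of 26, where it held for 26.8%. Such counts for the other comparisons are not given here.

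**Figure D1:**
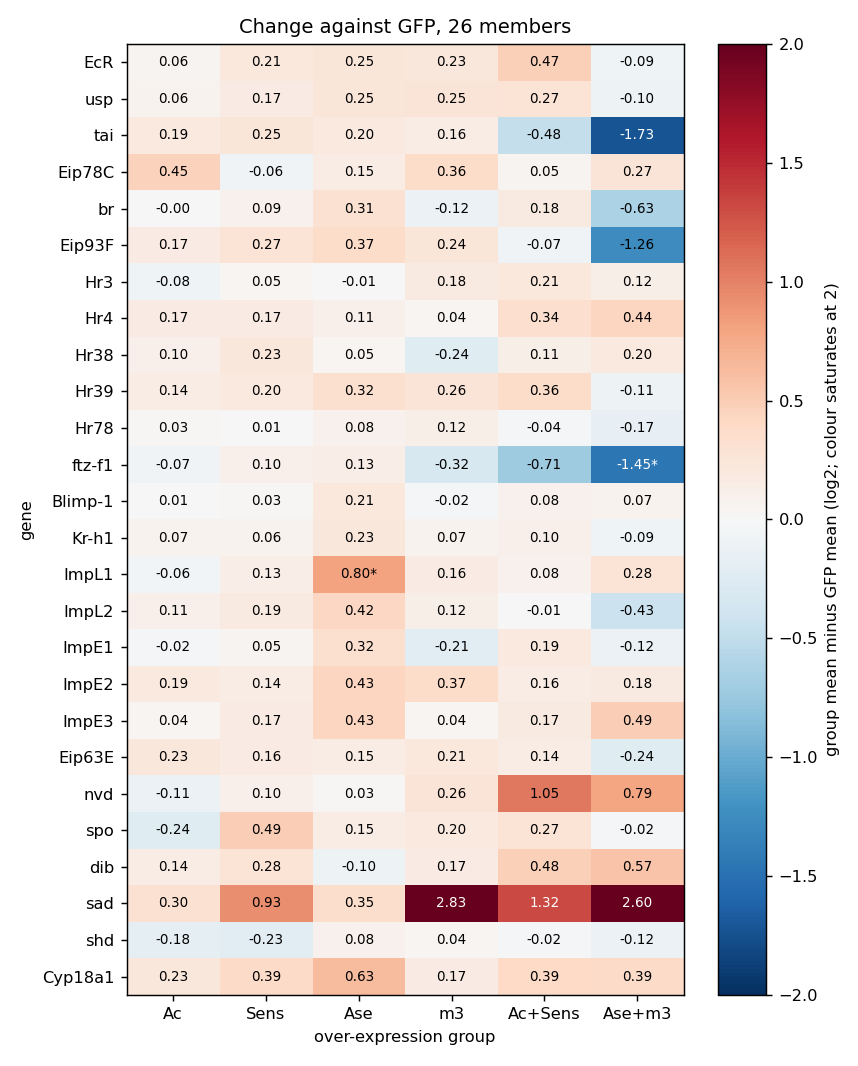
Difference of each group mean from the GFP mean (log2 scale, colour and number) for the 26 measured genes (vertical axis) in the 6 over-expression groups (horizontal axis); an asterisk marks an adjusted p under 0.05 in limma. ImpL1 in Ase (0.80) and ftz-f1 in Ase+m3 (-1.45) carry the asterisks, and sad has the largest uncalled differences, 2.83 in m3 and 2.60 in Ase+m3.

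The receptor genes differed little between groups. EcR, the ligand-binding partner of the receptor, had levels from 9.08 on Ase+m3 replicate 2 to 10.20 on Ac+Sens replicate 1, with a median of 9.68. Its group means ran from 9.37 in Ase+m3 to 9.93 in Ac+Sens, and the arrays of neighbouring groups overlapped. The difference from GFP of 0.47 in Ac+Sens (SE 0.20, 95% interval 0.058 to 0.89) had an adjusted p of 0.325 in limma.

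The gene usp, the retinoid X receptor homologue that pairs with EcR, read 7.81, 7.57 and 7.84 on the GFP arrays, 7.99, 7.90 and 8.08 in Ase, 7.93, 8.07 and 7.99 in m3, and 7.74 and 7.53 in Ase+m3. Both Ase+m3 arrays were below every Ase and m3 array and within or below the GFP range. The interaction of Ase and m3 was -0.60 (SE 0.16, adjusted p = 0.0456 in limma). This call held when the third GFP array, Ac+Sens replicate 2 or 3, or Ase+m3 replicate 1 was left out and was lost without any other single array, with adjusted p-values from 0.0502 to 0.118. With the length trend removed it was -0.42 (adjusted p = 0.12).

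The gene tai (taiman), a co-activator of the receptor, was near 7 on most arrays. It read 7.11, 6.87 and 7.24 in GFP, 7.38, 7.28 and 7.16 in Ase, and 7.15, 7.20 and 7.34 in m3. The Ac+Sens arrays read 7.21, 6.84 and 5.72, and the Ase+m3 arrays 6.67 and 4.03. Both arrays of Ase+m3 lay below all those of GFP, Ase and m3, and the lowest levels of all were on Ase+m3 replicate 2 and Ac+Sens replicate 3. The difference of Ase+m3 was -1.93 from Ase (SE 0.51, adjusted p = 0.0429 in limma) and -1.88 from m3 (adjusted p = 0.0441). Without Ase+m3 replicate 2 these were -0.60 (adjusted p = 0.36) and -0.56 (0.366). Both calls held only when the second GFP array, Ac+Sens replicate 1 or 3, or Ase+m3 replicate 1 was left out, and were lost without any other array (adjusted p from 0.0519 to 0.366).

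Among the transcription factors that ecdysone induces, ftz-f1 was called lower in Ase+m3 than in GFP, Ase and m3. It encodes the nuclear receptor that marks the time between hormone pulses and makes tissues competent for the next. Of its probe sets, the brighter, with the higher mean level, read 8.62, 8.29 and 8.46 in GFP, 8.54, 8.47 and 8.75 in Ase, 8.38, 7.90 and 8.14 in m3, 7.95, 7.88 and 7.40 in Ac+Sens, and 7.84 and 6.17 in Ase+m3. Every array of both combinations was below every GFP, Ac, Sens and Ase array, while m3 overlapped with GFP. In bulk tissue, fewer cells that express a gene and less RNA in each cell cannot be told apart.

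In Ase+m3 the brighter ftz-f1 probe set was lower than in GFP by 1.45 on the log2 scale, a ratio of 0.365 (SE 0.32, adjusted p = 0.0302 in limma). Leaving out GFP replicate 1 gave an adjusted p of 0.101, leaving out GFP replicate 3 gave 0.0762, and leaving out Ase+m3 replicate 2 gave 0.0812 at a difference of -0.61. Without Ase+m3 replicate 1 the difference was -2.29. Against Ase it was -1.58 (adjusted p = 0.0223), lost without Ase replicate 1, 2 or 3 or without Ase+m3 replicate 2 (-0.74), at adjusted p-values from 0.0564 to 0.082. Against m3 it was -1.13 (adjusted p = 0.0465), a call that held only without Ac+Sens replicate 3 or Ase+m3 replicate 1. It was -0.30 (adjusted p = 0.423) without Ase+m3 replicate 2, and the other arrays left out gave 0.0512 or more.

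The dimmer ftz-f1 probe set gave the same order for Ase+m3 and another one for m3. It read 7.47, 7.01 and 7.47 in GFP, 8.13, 8.07 and 7.87 in m3, 7.30, 7.23 and 6.85 in Ac+Sens, and 6.81 and 5.26 in Ase+m3. All m3 arrays were above all GFP arrays on this probe set, and both Ase+m3 arrays were below them. The difference of Ase+m3 was -1.28 from GFP (adjusted p = 0.0474 in limma), a call that held only when the second GFP array, the third Ac+Sens array or Ase+m3 replicate 1 was left out (0.0517 to 0.235 otherwise). It was -1.69 from Ase (adjusted p = 0.0172, lost without any Ase array or Ase+m3 replicate 2, at up to 0.0601). From m3 it was -1.99 (adjusted p = 0.00875), and this call held without each array in turn, with -1.21 and 0.0124 without Ase+m3 replicate 2. The difference of m3 from GFP was 0.71 on the dimmer probe set (adjusted p = 0.334) and -0.32 on the brighter one (0.709), so the probe sets disagreed in sign and neither passed.

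The interaction of Ase and m3 was -2.40 on the dimmer ftz-f1 probe set (SE 0.43, adjusted p = 0.0164 in limma). It was -1.62 (adjusted p = 0.0132) without Ase+m3 replicate 2, and the call was lost without GFP replicate 2 (0.056) or m3 replicate 2 (0.0574). On the brighter probe set the interaction was -1.26 (adjusted p = 0.0835). The F test over all groups passed on the dimmer probe set (adjusted p = 0.0296) and was lost without any 1 of 7 arrays (0.0505 to 0.0712).

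In Ac+Sens the brighter ftz-f1 probe set differed from GFP by -0.71 (SE 0.28), with an adjusted p of 0.302 in limma over all arrays. The adjusted p was 0.0226 without either Ase+m3 array, at the same difference. The dimmer probe set differed by -0.19 (adjusted p = 0.854).

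The other early genes are zinc finger or DNA-binding factors. The Broad gene br, which specifies pupal fate, read 8.33, 8.18 and 8.74 in Ase and 7.90 and 7.07 in Ase+m3, while the GFP arrays read 8.22, 7.97 and 8.13. Both Ase+m3 arrays were below the Ase and GFP arrays, and m3 (8.26, 8.03 and 7.68) reached down between them. The difference of Ase+m3 from Ase was -0.93 (SE 0.25, adjusted p = 0.0435 in limma). It held only when the second GFP array, the third m3 array, any 1 array of Ac+Sens or Ase+m3 replicate 1 was left out, and was -0.52 (adjusted p = 0.294) without Ase+m3 replicate 2. Leaving out any other array gave adjusted p-values from 0.0514, and with the length trend removed the value was -0.87 (0.0656). The other br probe sets differed by -0.81, -1.15, -0.002 and -0.49 in order of falling mean level, and none of these passed (adjusted p from 0.0738 to 0.996).

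Eip93F, the factor that promotes adult fate in late metamorphosis, varied most within groups among the genes measured on all arrays. It read 9.43, 9.28 and 9.56 in GFP, 10.47, 9.72 and 7.87 in Ac+Sens, and 9.82 and 6.51 in Ase+m3. The arrays of each combination therefore lay on both sides of the GFP arrays. The difference of Ase+m3 from Ase was -1.63 (SE 0.71, adjusted p = 0.156 in limma) and became 0.022 without Ase+m3 replicate 2, and that from m3 was -1.51 (0.177) and became 0.15.

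**Figure D2:**
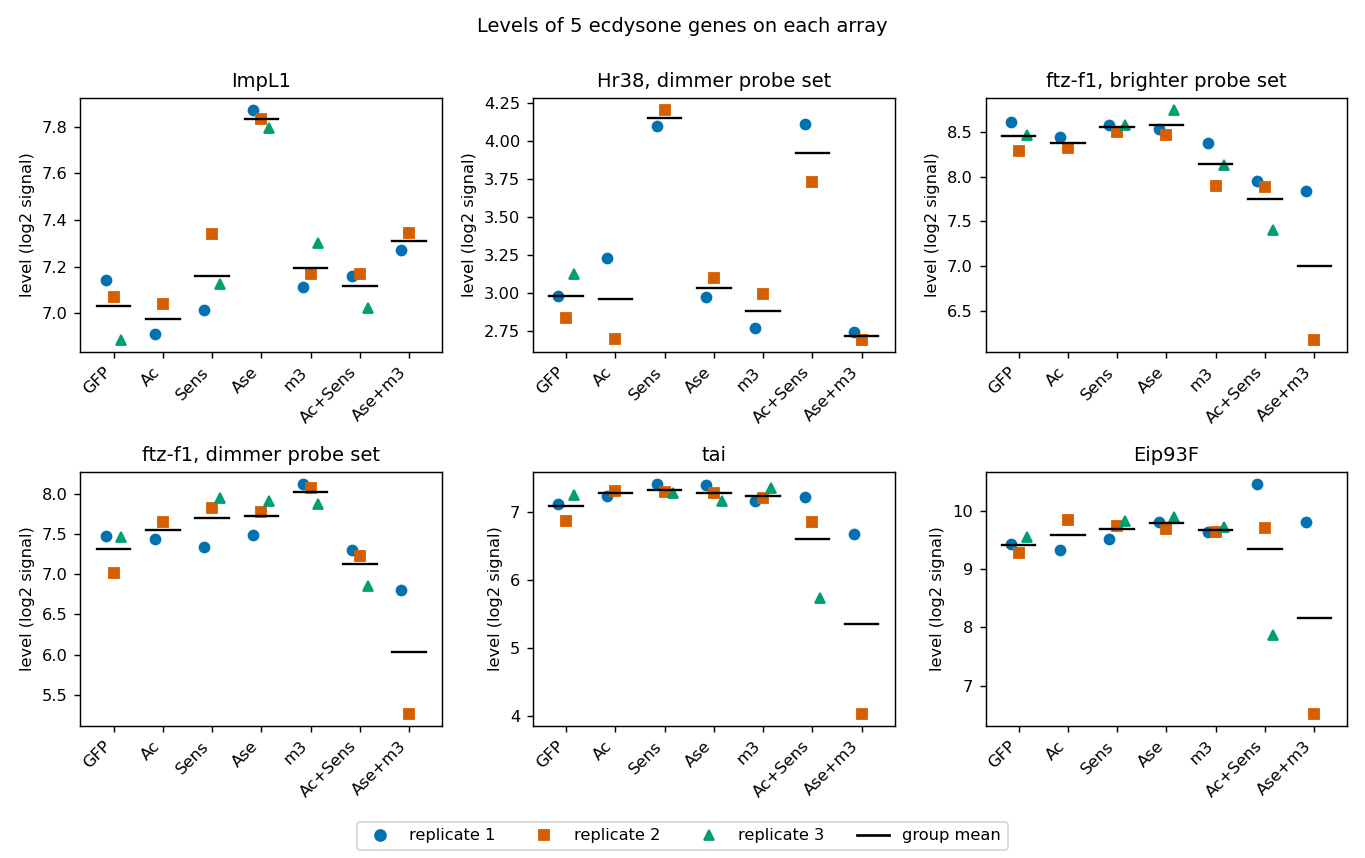
Level (vertical axis, log2 signal) on each array for ImpL1, Hr38 (dimmer probe set), both ftz-f1 probe sets, tai and Eip93F, by group (horizontal axis); symbols are replicates and the line is the group mean, and levels listed at 0 are not drawn. The 3 Ase arrays lie above all others for ImpL1, and for ftz-f1, tai and Eip93F the lowest level is on Ase+m3 replicate 2.

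Of the nuclear receptors, Hr39 and Hr78 were measured on all arrays and changed in no group. Hr39, a relative of ftz-f1, ran from 9.29 to 10.28 with a median of 9.91, and Hr78, an early orphan receptor, from 9.58 to 10.15 with a median of 9.94. Both had their lowest level on Ase+m3 replicate 2. Their differences from GFP lay between -0.17 and 0.36, with adjusted p-values of 0.278 or more in limma.

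The remaining nuclear receptors and repressors were missing on the arrays with zeros. Eip78C, an early-late nuclear receptor, had levels of 3.72 to 4.49. Hr3, which induces ftz-f1, had 2.19 to 2.60, and Hr4, which acts beside it, 3.84 to 4.6. Blimp-1, a repressor of ftz-f1, had 4.29 to 4.78, and Kr-h1, a zinc finger factor that also answers to juvenile hormone, had 2.38 to 2.79. None of these 5 was called in any comparison.

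Hr38, the NR4A-type nuclear receptor that can also pair with usp, gave different results on its probe sets. The brighter one, which stands for the gene, had levels of 3.21 to 3.89 and differed from GFP by 0.23 in Sens (SE 0.12, adjusted p = 0.584 in limma) and by 0.11 in Ac+Sens (0.757). The dimmer one read 2.98, 2.83 and 3.12 in GFP, 3.23 and 2.69 in Ac, 4.10 and 4.21 in Sens, and 4.12 and 3.73 in Ac+Sens. The arrays of both groups that carry UAS-Sens lay above all other arrays, whose highest level was 3.23, and the first of the Sens values is from the array whose sens level went against its label.

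The difference from GFP of the dimmer Hr38 probe set was 1.18 in Sens (SE 0.16, adjusted p = 0.0131 in limma) and 0.95 in Ac+Sens (SE 0.16, adjusted p = 0.0236). The table gives no detection calls, so no ratio is given over levels as low as those of Hr38 and sad in GFP. The Sens call was lost without Sens replicate 1 (1.23, adjusted p = 0.0691), Sens replicate 2 (1.13, 0.178), GFP replicate 1 (0.0586) or GFP replicate 2 (0.0596). The Ac+Sens call was lost without Ac+Sens replicate 1 (0.75, adjusted p = 0.173), GFP replicate 1 (0.0855) or GFP replicate 2 (0.0956). Over all groups its F test had an adjusted p of 0.00369, and it passed without each array in turn. Each of Sens and Ac+Sens had 2 arrays with a level here.

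ImpL1, an ecdysone-inducible gene first isolated from imaginal discs, changed in Ase. It read 7.87, 7.83 and 7.79 in Ase and 7.14, 7.07 and 6.88 in GFP. In the other groups it read 6.91 and 7.04 (Ac), 7.01, 7.34 and 7.12 (Sens), 7.11, 7.17 and 7.30 (m3), 7.16, 7.17 and 7.02 (Ac+Sens), and 7.27 and 7.35 (Ase+m3). The lowest Ase array was above the highest of the other 16 arrays. The order of the group means was Ase 7.83, Ase+m3 7.31, m3 7.19, Sens 7.16, Ac+Sens 7.12, GFP 7.03 and Ac 6.97, and below Ase the arrays of neighbours in that order overlapped.

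The rise of ImpL1 in Ase against GFP was 0.80 on the log2 scale, a ratio of 1.74 (SE 0.09, 95% interval 0.60 to 1.003, adjusted p = 0.000276 in limma). It passed in all 30 alternative settings, with adjusted p-values up to 0.00612. Ase+m3 was lower than Ase by 0.53 (SE 0.11, adjusted p = 0.0223), and without Ase replicate 1, 2 or 3 the adjusted p was 0.0885, 0.0645 or 0.0503. The interaction of Ase and m3 was -0.69 (SE 0.14, adjusted p = 0.0288), lost without GFP replicate 2 (0.0705), Ase replicate 1 (0.0875), Ase replicate 2 (0.0606), m3 replicate 2 (0.0751) or m3 replicate 3 (0.0611). Quantile normalization of the table again gave -0.27 for Ase+m3 against Ase (adjusted p = 0.149) and -0.31 for the interaction (0.212). Both calls were also lost with only the arrays that list no 0 (0.0777 and 0.119) and with only the groups compared (0.383 and 0.074), and the interaction with the replicate block and the length trend removed (0.054). In Ase+m3 against GFP the difference of 0.28 did not pass (adjusted p = 0.137).

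Among markers of other cells, the haemocyte gene NimC1 was also higher in Ase than in GFP (0.86, adjusted p = 0.0145 in limma), 1 of 5 measured haemocyte markers. That call was lost without Ase replicate 1 or 2. NimC1 was higher in Ac+Sens as well (0.91, adjusted p = 0.00721), where ImpL1 differed from GFP by 0.08. The log2 of the summed signal of the 3 haemocyte markers on all arrays was 10.35 to 10.88 in GFP and 10.66 to 10.91 in Ase. That sum is weighted to Ppn, the brightest of them, at 10.13 to 10.71 in GFP. Another, srp, read 7.26, 7.01 and 7.13 in GFP and 7.80, 7.705 and 7.82 in Ase. Pxn read 6.23, 5.92 and 5.90 in GFP and 6.63, 5.95 and 6.43 in Ase. Neither srp nor Pxn was called. The median difference of the 5 haemocyte markers from GFP was 0.32 in Ase. Hml was at 0 on 4 arrays and NimC1 on 3, and the part of haemocytes in the ImpL1 result was not tested. The genes whose levels followed ImpL1 most closely over the 19 arrays were CG11275 (Pearson r 0.87), CG13737 (0.85), CG4854 (0.85), pippin (0.79) and CG6685 (0.78), all of them higher in Ase than in GFP, and these were picked after the values were seen.

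The other Imp genes changed in no comparison. ImpL2, a secreted binding protein that antagonises insulin-like peptides, read 12.16, 11.98 and 12.32 in GFP, 12.62, 12.55 and 12.54 in Ase, and 12.44 and 11.02 in Ase+m3. The Ase arrays were above the GFP arrays, and Ase+m3 lay on both sides of GFP. The difference of Ase from GFP was 0.42 (SE 0.25, adjusted p = 0.481 in limma).

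ImpE3 read 6.58, 6.69 and 6.49 in GFP, 6.91, 7.16 and 6.99 in Ase, and 6.79 and 7.36 in Ase+m3. Both groups lay above GFP, by 0.43 (adjusted p = 0.184 in limma) and 0.49 (0.11). The second was 0.77 (adjusted p = 0.00718) without Ase+m3 replicate 1 and 0.21 (0.556) without Ase+m3 replicate 2. ImpE3 was also the only one of the 15 genes with a level on all arrays that was highest on Ase+m3 replicate 2, and it is the shortest of them, at 1.09 kb.

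ImpE1 ran from 6.02 to 7.37 with a median of 6.83, and ImpE2 from 11.22 to 12.55 with a median of 11.86. Their GFP arrays alone covered 6.32 to 7.24 and 11.47 to 11.97. Every difference from GFP was within 0.43 of 0 for both genes, with adjusted p-values of 0.512 or more.

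Of the Eip genes, Eip63E, a cyclin-dependent kinase, read 10.24, 10.47 and 10.54 in m3 and 10.16 and 9.77 in Ase+m3, where GFP read 10.29, 10.17 and 10.16. Both Ase+m3 arrays were below the m3 arrays, and 1 of them was level with the lowest GFP array. The difference of Ase+m3 from m3 was -0.45 (SE 0.13, adjusted p = 0.046 in limma). It held only without Ac+Sens replicate 2, Ac+Sens replicate 3 or Ase+m3 replicate 1, was -0.26 (0.284) without Ase+m3 replicate 2, and had 0.0512 or more without any other array. The probe sets annotated MsrA (Eip71CD, a methionine sulfoxide reductase) and Cth (Eip55E, a cystathionine lyase) were steady, at 8.82 to 9.41 and 8.60 to 9.11, and neither was called in any comparison.

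Among the enzymes of the list, sad had the widest range of levels. Sad (shadow) is a mitochondrial P450 of the last steps of ecdysone synthesis. Its level was 3.75, 3.95 and 3.90 in GFP, 4.18 and 4.15 in Ac, and 4.25 and 4.19 in Ase. It was 4.10 and 5.48 in Sens, 7.69, 6.96 and 5.45 in m3, 4.13, 4.16 and 7.28 in Ac+Sens, and 5.26 and 7.66 in Ase+m3. All m3 and Ase+m3 arrays were above the GFP, Ac and Ase arrays, and so were Sens replicate 2 and Ac+Sens replicate 3.

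For sad the difference of m3 from GFP was 2.83 (SE 0.80, adjusted p = 0.165 in limma), and that of Ase+m3 was 2.60 (SE 0.90, adjusted p = 0.115). Neither passed over all arrays. For m3 the adjusted p was 0.0288 with only the arrays that list no 0, where the value was 3.46, and 0.00972 when Ac+Sens replicate 3 and Ase+m3 replicate 2 were both left out, a setting chosen after seeing the data. For Ase+m3 it was 0.02 without Ase+m3 replicate 1 (3.80), 0.464 without Ase+m3 replicate 2 (1.39), and 0.042 with only the arrays that list no 0.

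Among genes with a level on every array that measured sad, those that followed sad most closely included other genes of ecdysone synthesis. The synthesis genes dib, nvd, spo and shd had no level on some of these arrays and could not be ranked. The ranking therefore does not show how the synthesis genes followed sad as a set. Of the arrays with zeros, only m3 replicate 3 and Ac+Sens replicate 3 had a level of sad, 5.45 and 7.28. A gene as dim in GFP as spok (2.24 to 2.33) could be ranked only because it had a level on both (5.06 and 8.62). Its correlation with sad is thus partly set by this filter. Over 17 arrays, among 6132 genes and picked after the values were seen, the closest were Start1 (Pearson r 0.94), phtm (0.93), spok (0.91), cu (0.90), CG4408 (0.88) and asf1 (0.85). Start1 is a lipid-transfer protein of the cholesterol-transporting kind, phtm is the phantom hydroxylase, spok (spookier) is the P450 of the larval gland's early steps, and cu is the curled gene. The other genes named do not belong to the listed synthesis genes.

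The level of spok was 2.33, 2.27 and 2.24 in GFP, 6.13 and 2.26 in Ac, and 2.60, 2.71 and 6.13 in Sens. It was 8.48, 7.11 and 5.06 in m3, 2.62, 2.24 and 8.62 in Ac+Sens, and 5.16 and 9.77 in Ase+m3, while the Ase arrays with a level read 2.42 and 2.43. High levels of spok were on arrays of several groups: the m3 and Ase+m3 arrays, Ac+Sens replicate 3, Ac replicate 1 and Sens replicate 3.

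The probe set annotated phtm was highest on some of the same arrays, with 5.62 to 5.82 in GFP, 7.45, 7.10 and 6.31 in m3, 7.63 on Ac+Sens replicate 3 and 7.79 on Ase+m3 replicate 2. Start1 was 7.98 to 8.16 in GFP, 9.43, 8.87 and 8.61 in m3, 9.01 on Ac+Sens replicate 3 and 9.36 on Ase+m3 replicate 2. None passed in m3 against GFP, with differences of 4.61 for spok (adjusted p = 0.272 in limma), 1.26 for phtm (0.271) and 0.88 for Start1 (0.154). The listed markers of the prothoracic gland, a tissue that the labels do not name, are sad, spok, phm, dib, nvd and sro. Under these symbols 5 of the 6 were measured, each of them at 0 on some arrays. On m3 replicates 1 and 2, dib read 4.86 and 4.52, nvd 3.20 and 3.14, and sro 4.19 and 3.87. The GFP arrays had 4.37 to 4.60 for dib, 2.77 to 2.99 for nvd and 3.81 to 4.48 for sro. The probe set annotated phtm had a level on all 19. Whether gland cells were carried over in some dissections was not tested.

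**Figure D3:**
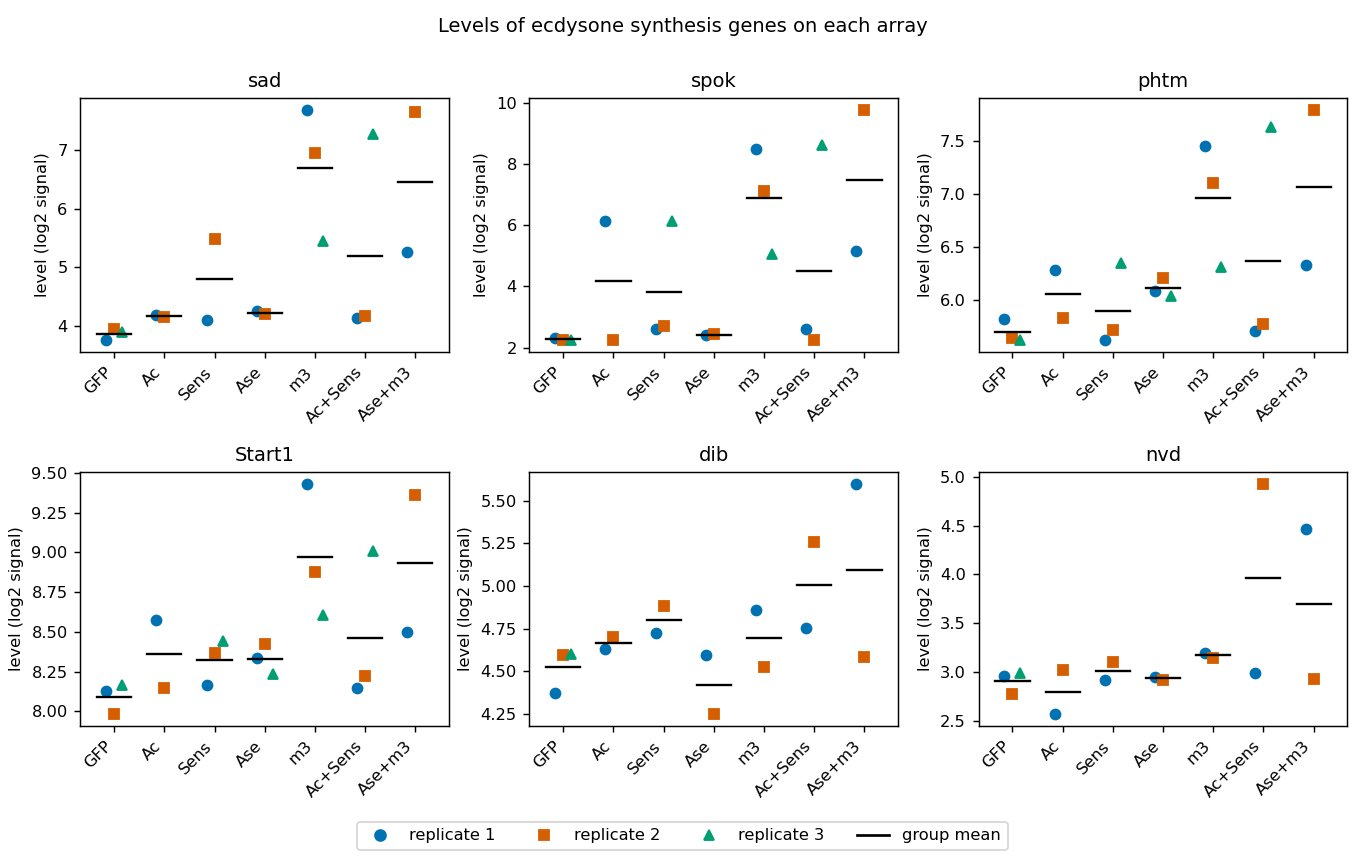
Level (vertical axis, log2 signal) of sad, spok, phtm, Start1, dib and nvd on each array by group (horizontal axis); symbols are replicates, lines are group means, and levels listed at 0 are not drawn. Sad, spok, phtm and Start1 are all high on m3 replicates 1 and 2, Ac+Sens replicate 3 and Ase+m3 replicate 2, up to 7.69, 9.77, 7.79 and 9.43, and they differ on Ac replicate 1 and Sens replicate 2, while dib and nvd are high on Ac+Sens replicate 2 and Ase+m3 replicate 1.

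Other enzymes of the chain did not share this pattern. The oxygenase nvd (neverland), which acts first on cholesterol, read 2.57 to 3.20 on 13 arrays but 4.93 on Ac+Sens replicate 2 and 4.46 on Ase+m3 replicate 1. The mitochondrial P450 dib (disembodied) had its highest levels on the same arrays, 5.26 and 5.60, where the highest GFP array read 4.6. The difference of dib in Ase+m3 from GFP was 0.57 (adjusted p = 0.19 in limma), and it was 1.08 (0.0145) without Ase+m3 replicate 2 and 0.063 without Ase+m3 replicate 1.

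The last 3 enzymes were called in no comparison. The P450 spo (spook), the embryonic counterpart of spok, had levels of 2.68 to 3.75, and shd (shade), which makes the active hormone in target tissues, had 3.74 to 4.32. Cyp18a1, which inactivates the active hormone and is itself induced by it, was 6.75, 6.41 and 7.15 in GFP and 7.60, 7.48 and 7.12 in Ase, groups that overlapped at 1 array. That difference was 0.63 (SE 0.18, adjusted p = 0.117 in limma), and 0.0459 without the third GFP array.

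Within groups, most of the 15 genes measured on all arrays varied more than the median of the 7284 probe sets measured on all arrays. The pooled standard deviation between arrays of a group was above that median (0.164) for 11 of the 15. Among the 15 it was highest for Eip93F (0.88), tai (0.63) and ImpE1 (0.42). Leaving out Ac+Sens replicate 3 and Ase+m3 replicate 2, it was above the median (0.119) for 12 of 15, with 0.34 for ImpE1 and ImpE2, at percentile 95.6 each, and 0.14 for tai. ImpL1 was among the steadier genes, at 0.11.

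**Figure D4:**
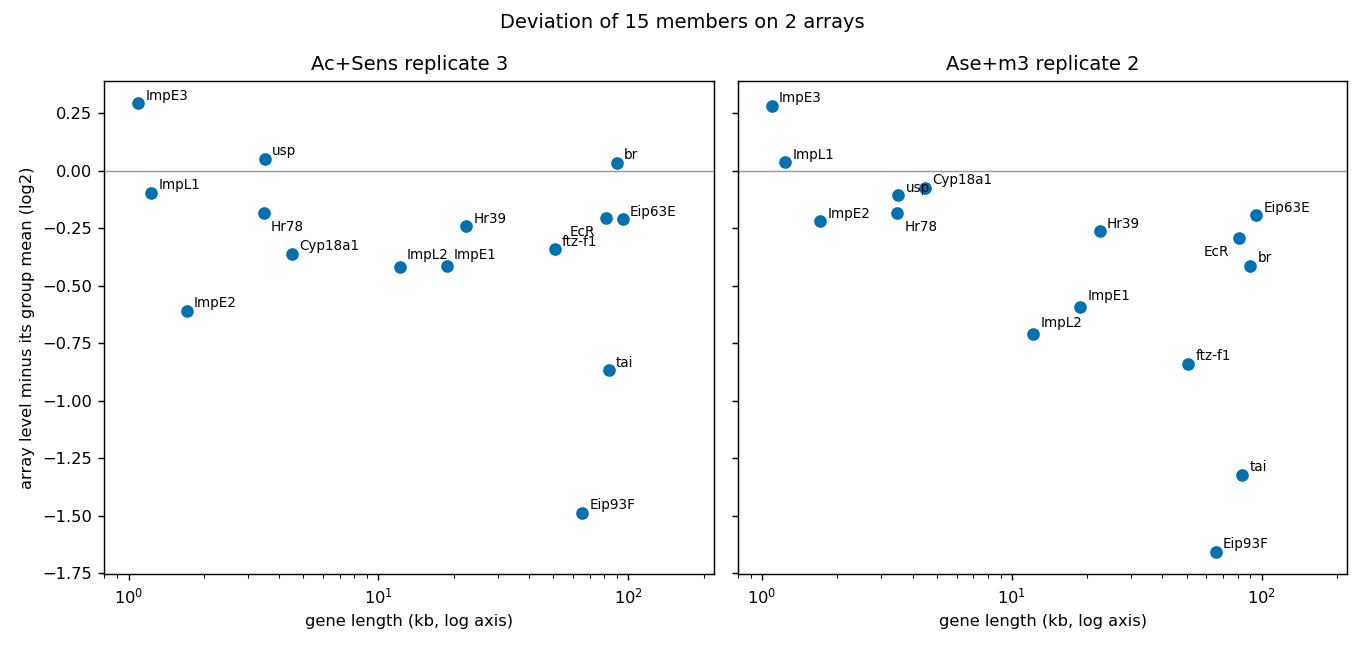
Level of each of the 15 genes minus its group mean (vertical axis, log2) on Ac+Sens replicate 3 and Ase+m3 replicate 2, against gene length from RefSeq (horizontal axis, kb, log scale). The short ImpE3 (1.09 kb) is above its group mean on both arrays, and tai (83.4 kb) and Eip93F (65.4 kb) are the lowest. Other genes do not follow length on Ac+Sens replicate 3. There the short ImpE2 (1.71 kb) is at -0.61, br (89.7 kb) at 0.036 and Eip63E (94.8 kb), the longest, at -0.21. Ase+m3 has 2 arrays, so its other array mirrors the values of replicate 2.

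Some genes moved together between arrays of the same group. Of 105 pairs, 5 had a Pearson correlation of deviations from the group mean over 19 arrays that passed an exact permutation test within groups after Benjamini-Hochberg adjustment. By Spearman's rho 11 pairs passed, these 5 and 6 more. The 6 were tai with ImpE1, ImpE2 and Cyp18a1, and Eip93F with EcR, Hr39 and, below 0, ImpE3. The share of pairs of other probe sets that would pass was not computed, so these counts cannot be read as a trait of the pathway. ImpE1 and ImpE2 had r = 0.84 (Spearman rho 0.851, exact permutation adjusted p = 0.0186), and r was 0.89 without the arrays farthest from the median. ImpE2 with Cyp18a1 had r = 0.817 (rho 0.872, exact permutation adjusted p = 0.0186; 0.769 without the farthest arrays), and ImpE1 with Cyp18a1 had r = 0.777 (rho 0.789, the same adjusted p; 0.873). On the GFP arrays, for example, ImpE1 read 6.65, 6.32 and 7.24, Cyp18a1 6.75, 6.41 and 7.15, and ImpE2 11.47, 11.56 and 11.97. In each of the 3 genes the highest GFP level was on replicate 3.

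EcR and Hr39 had r = 0.859 (rho 0.882, exact permutation adjusted p = 0.0186; 0.901 without the farthest arrays), and Hr78 and ImpE2 had r = 0.833 (rho 0.804, exact permutation adjusted p = 0.0324; 0.807). With the length trend removed the 5 correlations were 0.777 for EcR and Hr39, 0.793 for ImpE1 and ImpE2, 0.82 for ImpE2 and Cyp18a1, 0.704 for ImpE1 and Cyp18a1, and 0.77 for Hr78 and ImpE2. Eip93F and tai had the highest r, 0.968, which did not pass (exact permutation adjusted p = 0.14). On each array both genes of a pair are read from the same dissection, RNA and hybridisation, and the labels give no dates or batches.

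**Figure D5:**
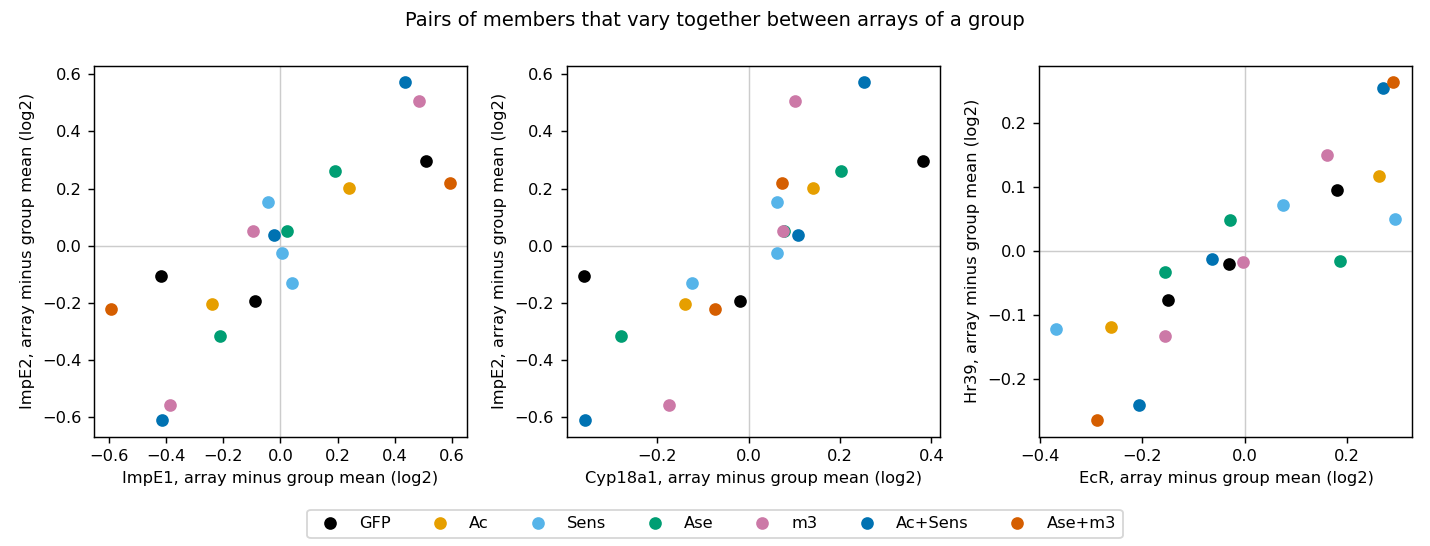
Deviation of each array from its group mean (both axes, log2) for ImpE1 and ImpE2 (r = 0.84), Cyp18a1 and ImpE2 (r = 0.817), and EcR and Hr39 (r = 0.859); each point is 1 of 19 arrays, coloured by group. Arrays of several groups lie along each line, not those of 1 group.

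Other genes of the pathway were taken from lists. For scale, 5.6% of all probe sets were called in Ase+m3 against Ase (4.3% as lower) and 6.56% against m3 (4.03% as lower). In the interaction of Ase and m3 the share was 3.95% (3.27% below 0). Of 12 measured genes of synthesis and transport, mld (molting defective) was called, in the interaction of Ase and m3 (-1.55, adjusted p = 0.0464 in limma). Of 11 other nuclear receptors, Hr96, a receptor of lipid and toxin responses, was lower in Ase+m3 than in Ase (-0.79, adjusted p = 0.0328) and m3 (-0.76, 0.036), with an interaction of -1.04 (0.0374), and knrl was lower than in m3 (-1.45, 0.0477). Of 11 receptor co-factors and juvenile hormone partners, rig (-0.84, adjusted p = 0.0337), Utx (-0.61, 0.0318) and bon (-0.79, 0.0388) were lower in Ase+m3 than in Ase. Lower than in m3 were those 3 and Lpt (-0.73, 0.0477), and rig also had the interaction (-0.997, 0.0492). Of 17 measured target genes known from other tissues or stages, the glue gene Sgs8 was higher in Ase+m3 than in m3 (0.67, adjusted p = 0.0449).

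All but 1 of these 14 calls were decreases in comparisons with Ase+m3. Without its replicate 2, the array least like the others, 1 of the 14 was still called, that of Sgs8. Against Ase, rig was then -0.31 (adjusted p = 0.183), Utx -0.29 (0.201), bon -0.34 (0.285) and Hr96 -0.33 (0.199). Against m3, Hr96 was -0.30 (0.215), knrl -0.71 (0.342) and Lpt -0.16 (0.444), and the mld interaction was -0.89 (0.135). Each of the 14 was also lost without at least 3 other single arrays. Of the 10 notum epidermis markers, 1 was called lower in Ase+m3 than in GFP, ara (-0.65, adjusted p = 0.045 in limma). Against Ase 1 was called lower, shg (-0.74, 0.0352), and against m3 4 were: ush, eyg, shg and cora. Of all probe sets, 0.57, 4.3 and 4.03% were called as lower in these comparisons. None of these marker calls held without Ase+m3 replicate 2, where ara was -0.50 (0.13) and shg -0.37 (0.233) against Ase. With both Ase+m3 arrays, the median difference of the 10 markers was -0.23 from GFP, -0.45 from Ase and -0.40 from m3. The medians over all probe sets were 0.069, 0.013 and 0.039. The tracheal gene btl, 1 of 3 measured tracheal markers, was higher in Ase+m3 than in GFP (0.53, adjusted p = 0.0384 in limma), also without Ase+m3 replicate 2 (0.57, 0.043). That call was lost without any 1 of 10 other arrays. The other tracheal markers were not called and overlapped with GFP: serp read 8.50 and 9.20 in Ase+m3 and 9.55, 9.23 and 8.76 in GFP. For verm these were 7.08 and 7.79, and 7.94, 7.75 and 7.40. The median difference of the 3 tracheal markers from GFP was -0.26. The log2 of the summed signal of the 10 notum epidermis markers was 11.59 to 12.05 in Ase+m3, 11.92 to 12.24 in GFP, 12.11 to 12.19 in Ase and 12.10 to 12.31 in m3. None was at 0, and their part in the lower levels of ftz-f1, tai, br and Eip63E was not tested.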

How the data were processed

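Values are the log2 levels that the authors deposited as 1 table for the 19 Affymetrix arrays, made with RMA per the submitters' processing notes. The sources used here do not give the genome build. Of 18769 probe sets, 13647 carry 1 gene symbol in the platform annotation, 402 several and 4720 none. Values listed at exactly 0 on 4 arrays were treated as missing. Gene synonyms and lengths came from RefSeq (Release 6), and no sequences were printed.

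One mean per group was fitted to all probe sets in R 4.3.3 by the limma package, version 3.58.1 (lmFit, contrasts.fit, eBayes), giving 13 comparisons, and p-values were adjusted over all probe sets (Benjamini-Hochberg). The script was tested on simulated data. Each gene is named by the list, further genes where called, and otherwise up to 2 per list with the smallest F test p. The genes and lists were chosen with earlier results of these data known. Alternatives were 10 planned settings, 19 that leave out 1 array, and 1 added after seeing the data. The number of arrays limits precision.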

Additional observations from a re-analysis of the deposited data

Results flagged for a closer look

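Over all arrays the interaction of Ase and m3 was called for usp (-0.60, SE 0.16, adjusted p = 0.0456 in limma): m3 was 0.25 above GFP, and Ase+m3 was 0.35 below Ase. That call was lost in 23 of 30 alternative settings. For ImpL1 the interaction was -0.69 (SE 0.14, adjusted p = 0.0288), with m3 0.16 above GFP and Ase+m3 0.53 below Ase, and was lost in 9 of 30. For the dimmer ftz-f1 probe set the interaction was -2.40 (SE 0.43, adjusted p = 0.0164), with m3 0.71 above GFP and Ase+m3 against Ase at -1.69. It was lost in 4 of 29 settings, and the brighter ftz-f1 probe set did not pass (adjusted p = 0.0835).

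The dimmer Hr38 probe set, which does not stand for the gene in the counts, was above the GFP arrays by 1.18 in Sens (adjusted p = 0.0131 in limma) and by 0.95 in Ac+Sens (adjusted p = 0.0236). Each group had 2 arrays with a level. Those of Sens include the array labelled Sens replicate 1, whose sens level was that of GFP, and without it the Sens difference was 1.23 (adjusted p = 0.0691).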

How the results depend on the processing

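The rise of ImpL1 in Ase kept its direction and its call in all 30 alternatives. Of 2194 values of 75 named changes, 1917 kept direction and side of the threshold, 209 were no longer past it, 64 newly passed and 4 reversed. The reversed ones were Eip93F in Ase+m3 against Ase (0.022) and m3 (0.15), each without Ase+m3 replicate 2 and without that array and Ac+Sens replicate 3 together; leaving out 1 array gave -3.29 to 0.022 and -3.16 to 0.15. The cause of the changes below was not tested, beyond fewer arrays or probe sets where the setting itself removes them. Leaving out 1 array gave 0 to 1 genes called in Ac+Sens against GFP, 1 to 2 in Ase, 0 to 8 in Ase+m3, 0 to 11 in Ase+m3 against Ase, 0 to 10 against m3, 0 to 10 in the interaction of Ase and m3 and 1 to 10 in the F test. The highest counts came without Ase+m3 replicate 1, which leaves the array that stood apart alone in its group, with its spread taken from the other groups. Of all probe sets, 15.5% were then called in Ase+m3 against GFP, 18.3% against Ase, 17.5% against m3, 18.2% in the interaction and 18.5% in the F test, and over all single arrays left out the lowest shares were 0.49, 0.186, 0.208, 0.202 and 1.26%. With only the arrays that list no 0, Ase+m3 against Ase gave 0, against m3 0, the interaction 0, the F test 2 (ImpL1 and sad) and m3 against GFP 1 (sad). Quantile normalization again gave 1, 0, 0 and 2 for the first 4 of these. With only the groups compared, Ase+m3 against GFP, Ase and m3 and the interaction gave 0 each. Removing the length trend gave 1 in the interaction and 2 in the F test. The trend and robust options gave 1 against m3 and 1 in the interaction. The interaction gave 4 with only probe sets on all arrays, 4 at a mean level of at least 5 and 4 with the mean of all probe sets, which also gave 1 in Sens, 1 in Ac+Sens (both Hr38) and 3 in the F test. Without Ac+Sens replicate 3 and Ase+m3 replicate 2, a setting chosen after seeing the data, the counts were 2 in Ac+Sens (Hr39 and ftz-f1), 4 in Ase (ImpL1, ImpL2, ImpE3 and Cyp18a1), 2 in Ase+m3, 1 in m3 (sad) and 4 in the F test.

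Arrays that share a replicate number did not vary together as a rule, though some pairs did. Over 52 pairs the correlation of deviations ran from -0.42 to 0.55 with a median of -0.003, and 15 were over 0.1. The arrays that list probe sets at 0 all carry the same replicate number. Whether arrays of a replicate number shared a batch was not tested. With the replicate number as a block, Ase+m3 against Ase gave 2 genes, against m3 0 and the interaction 1. With the block and the length trend removed, Ase+m3 against Ase gave 2, the interaction 0 and the F test 2. The block left the count unchanged in Ase (1) and Ase+m3 (1) against GFP.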
